A study of Homo sapiens with 2 samples.

Results

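H1993 is an established human lung adenocarcinoma line with an amplified gene for the receptor tyrosine kinase MET. Messenger RNA was sequenced from a PHA665752-resistant H1993 derivative and from parental H1993 cells, with 1 library per group. PHA665752 blocks the kinase activity of MET. The derivative was selected in PHA665752 raised from 1 nM to 1 µM, kept at 1 µM, and grown free of drug for 1 week ahead of experiments. The sample labels nevertheless list PHA665752 as the treatment of the resistant library and DMSO as that of the parental library, and they do not state how many clones the derivative holds. Both groups share the H1993 background. MET RNA stood at 3054 CPM in the resistant and 4859 CPM in the parental library, and its copy number in the derivative was not measured.

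The genes described here are the transcriptional core of the Hippo pathway and its final kinases. They were taken by symbol from the deposited count table and were found for all 10 names among 18944 genes. The coactivators are YAP1 and WWTR1, the gene of the protein TAZ. The DNA-binding partners are TEAD1, TEAD2, TEAD3 and TEAD4. The cofactors are VGLL3 and VGLL4, and the kinases are LATS1 and LATS2. All 10 passed the abundance filter of 1 CPM, the count scaled to library size, in at least 1 library, and each did so in both libraries.

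In the Hippo pathway the kinases LATS1 and LATS2, switched on by the MST kinases and their adaptors, phosphorylate YAP and TAZ and keep them out of the nucleus. Unphosphorylated YAP and TAZ enter the nucleus, bind TEAD factors and raise transcription of growth, adhesion and cytoskeletal genes. VGLL proteins bind the same face of TEAD. VGLL4 is best known as a competitor of YAP, and LATS2 is itself a transcriptional target of YAP and TEAD. In epithelial tumours, lung adenocarcinoma included, the pathway is studied for its part in growth and in survival under kinase inhibitors. RNA levels do not report the phosphorylation or location of these proteins.

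Differences are given as the log2 ratio of resistant over parental CPM with 0.5 added to each count, with an exact 95% interval. The interval covers counting error only. A gene was called when it differed at least 2-fold and its interval excluded 0. No replicate measures the spread between cultures, so no p-value is given and every difference describes these 2 libraries. The libraries held 17086748 counts (resistant) and 16723181 counts (parental), and 12245 genes were tested, with a median log2 ratio of 0.00 and quartiles of -0.39 and 0.43.

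The epithelial identity of the line was visible in both libraries, while lung lineage markers were scarce. The keratin gene KRT8 stood at 3394 CPM in the resistant and 2666 CPM in the parental library, and EPCAM at 164 and 389 CPM in the same order. The lung transcription factor gene NKX2-1 had 5.95 CPM in the resistant and 4.16 CPM in the parental library. The surfactant gene SFTPB had 2 counts in each library and NAPSA had 0 in each. All 10 epithelial markers summed to 8522 CPM in the resistant and 7955 CPM in the parental library, with KRT8 the most abundant. Of the 8 tested, EPCAM was called lower (log2 ratio -1.25) and 0 were called higher, with a median of -0.29. That is 12.5% lower, beside 8.29% of all tested genes. CLDN4 (-0.87), CDH1 (-0.69) and KRT19 (-0.63) were also below 0, while 4 were above 0. Of markers of other cell types, 7 fibroblast genes summed to 14.96 CPM in the resistant and 20.9 CPM in the parental library, nearly all of it COL1A1, with DCN and THY1 at 0 in both. Blood cell markers summed to 2.65 CPM in the resistant and 1.84 CPM in the parental library over 6 genes. Endothelial markers summed to 29.2 CPM in the resistant and 0.356 CPM in the parental library over 4 genes. That sum was CDH5, at 495 counts in the resistant and 5 in the parental library, while KDR had 0 in both and PECAM1 and VWF had at most 1 count in each. The part of CDH5 in the results below was not tested.

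Of the 10 genes, TEAD2, LATS2 and VGLL3 were called higher in the resistant library and WWTR1 was called lower. Over all tested genes 12.1% were called higher and 8.29% lower, so calls are common in this comparison, and with 10 genes the share of called members is known only coarsely. With the whole interval required to lie beyond 2-fold, the same 3 and 1 members passed, against 8.96% and 5.35% of tested genes. With a difference of 1 in the deposited log2 values they again passed, against 7.56% and 4.83%. The remaining 6 genes lay within 2-fold, with log2 ratios between -0.84 and 0.79. Each family held members on both sides of 0.

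**Figure D1:**
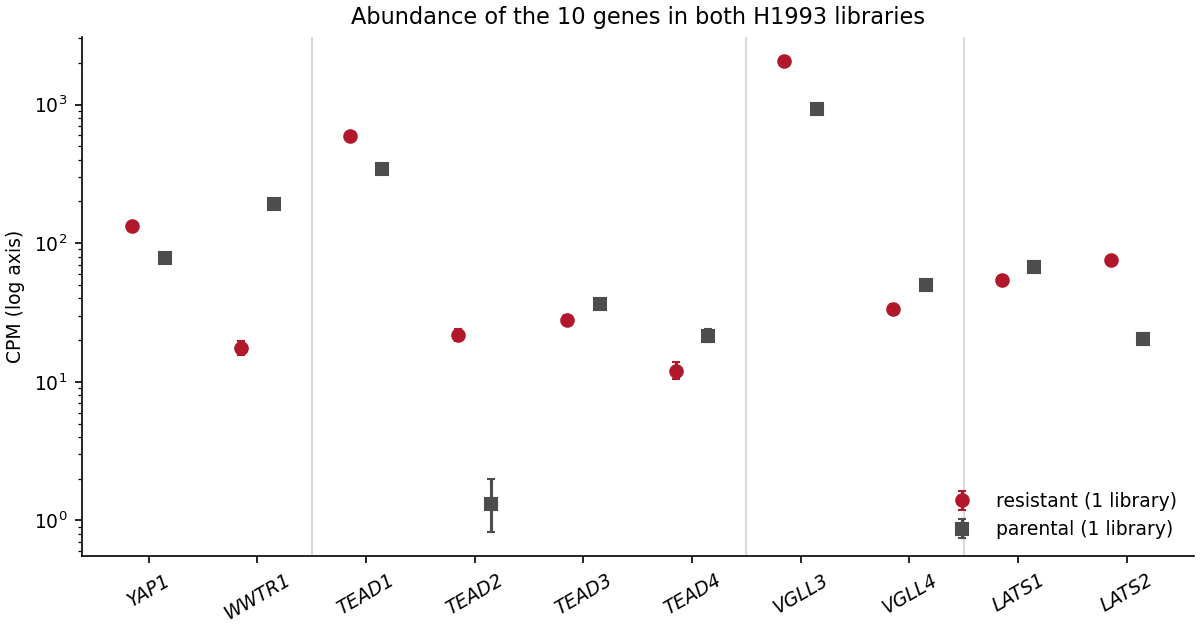
CPM on a log axis for the 10 genes in the resistant (circles) and parental (squares) library, with exact 95% Poisson intervals of the count, hidden by the symbol where narrow; vertical lines part the 4 families. WWTR1 stood at 17.5 CPM in the resistant and 191 CPM in the parental library, and TEAD2 at 21.8 CPM in the resistant and 1.31 CPM in the parental library. Heights of different genes are not corrected for gene length.

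Sequence upstream of the start sites is shown for the coactivator genes and for the 3 members called higher, because these genes carry the differences described below. Each is the 250 bases before a gene start, from RefSeq on GRCh38.p14, and the table held 15 such windows for 8 of the 10 genes. The core TEAD motif searched was GGAATG, on both strands (CATTCC on the other), and is in capitals where present. It occurred in 11.9% of 35116 windows of the same length and, among the 15 windows of these genes, in that of YAP1 alone. A match is a string of letters and does not show binding. The YAP1 window is chr11:102110197-102110446 on the plus strand. The WWTR1 windows are chr3:149703274-149703523 (a) and chr3:149658026-149658275 (b), those of TEAD2 are chr19:49362417-49362666 (a) and chr19:49361518-49361767 (b), and those of VGLL3 and LATS2 are chr3:86991150-86991399 and chr13:21061587-21061836, all on the minus strand.
YAP1: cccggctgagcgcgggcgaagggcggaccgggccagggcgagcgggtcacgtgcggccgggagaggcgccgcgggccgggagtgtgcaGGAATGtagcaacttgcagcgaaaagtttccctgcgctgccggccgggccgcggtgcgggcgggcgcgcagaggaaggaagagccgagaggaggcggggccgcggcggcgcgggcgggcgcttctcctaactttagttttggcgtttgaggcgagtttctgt
WWTR1 window a: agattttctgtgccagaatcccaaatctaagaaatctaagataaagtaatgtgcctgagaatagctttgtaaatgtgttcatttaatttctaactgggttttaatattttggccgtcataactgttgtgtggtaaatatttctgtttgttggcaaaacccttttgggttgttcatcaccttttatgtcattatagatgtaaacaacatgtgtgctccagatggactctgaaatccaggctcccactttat
WWTR1 window b: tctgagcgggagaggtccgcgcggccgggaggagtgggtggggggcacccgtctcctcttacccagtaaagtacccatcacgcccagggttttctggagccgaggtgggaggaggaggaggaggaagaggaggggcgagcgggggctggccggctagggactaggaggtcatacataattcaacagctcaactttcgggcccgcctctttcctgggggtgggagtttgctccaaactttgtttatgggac
TEAD2 window a: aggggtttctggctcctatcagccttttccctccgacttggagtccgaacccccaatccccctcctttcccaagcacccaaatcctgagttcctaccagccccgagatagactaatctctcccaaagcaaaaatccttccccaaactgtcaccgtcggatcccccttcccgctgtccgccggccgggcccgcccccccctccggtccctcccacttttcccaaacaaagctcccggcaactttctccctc
TEAD2 window b: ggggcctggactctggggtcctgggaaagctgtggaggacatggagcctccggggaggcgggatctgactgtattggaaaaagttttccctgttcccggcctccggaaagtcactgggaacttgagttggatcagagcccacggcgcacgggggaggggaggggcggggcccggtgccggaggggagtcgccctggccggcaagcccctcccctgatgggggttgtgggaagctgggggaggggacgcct
VGLL3: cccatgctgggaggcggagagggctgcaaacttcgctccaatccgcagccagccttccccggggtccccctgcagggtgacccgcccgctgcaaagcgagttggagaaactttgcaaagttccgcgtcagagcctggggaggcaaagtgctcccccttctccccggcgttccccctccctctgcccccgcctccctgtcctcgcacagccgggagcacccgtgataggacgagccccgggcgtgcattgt
LATS2: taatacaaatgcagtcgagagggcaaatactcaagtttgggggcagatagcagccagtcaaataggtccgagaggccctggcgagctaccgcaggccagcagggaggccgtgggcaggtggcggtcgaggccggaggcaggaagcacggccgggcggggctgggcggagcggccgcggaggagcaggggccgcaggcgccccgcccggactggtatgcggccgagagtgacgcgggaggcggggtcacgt

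The windows differ mainly in CG dinucleotides, the sites of DNA methylation. The YAP1 window holds 36 of them and the LATS2 window 25, against a median of 11 over all windows. VGLL3 has 18, and the TEAD2 windows have 12 and 13. The WWTR1 windows contrast, with 1 CG and 35.2% G and C in window a and 13 CG and 62.0% in window b. The counts do not show which start is used or whether any of these sites is methylated.

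The coactivators differed in opposite directions. WWTR1, which encodes TAZ, had 297 counts in the resistant and 3213 in the parental library, which is 17.5 and 191 CPM. That is 10.9-fold lower in resistant cells, with a 95% counting interval of 9.68 to 12.3, and 146 of 12245 tested genes had a lower ratio. YAP1 had 2265 counts in the resistant and 1316 in the parental library, or 133 and 78.2 CPM. YAP1 was 1.71-fold higher (1.59 to 1.83), short of the 2-fold rule, and 1899 tested genes had a higher ratio. In bulk RNA, fewer cells that express a gene and less RNA per cell cannot be told apart.

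The ratio of WWTR1 to YAP1 counts within a library does not depend on library scaling, and gene length cancels when it is compared between libraries. Between resistant and parental cells that ratio was 18.6-fold lower (exact 95% interval 16.2 to 21.4). Per unit of gene length, as read approximately from the deposited log2 values, WWTR1 stood at 0.137 of YAP1 in the resistant library. It stood at 2.56 of YAP1 in the parental library. WWTR1 was thus the more abundant coactivator RNA in parental cells and the less abundant in resistant cells. YAP1 supplied 88.0% of the per-length level of both genes in the resistant library, against 28.1% in the parental library. The summed counts of both were 2562 in the resistant and 4529 in the parental library, a 1.78-fold lower total (1.70 to 1.87).

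The symbol TAZ needs care in this table. RefSeq lists it as a synonym of both WWTR1 and TAFAZZIN, a mitochondrial phospholipid enzyme gene, and GENCODE 29 gives the symbol to a gene on chromosome X. The table has a separate row named TAZ, with 386 counts in the resistant and 356 in the parental library (log2 ratio 0.10), which was not used for the coactivator. On the opposite strand the exons of a GENCODE gene overlap 9.45% of WWTR1 exon bases and those of another 9.97% of YAP1. Neither partner is in the table, and without a stated strand setting such reads cannot be told apart.

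**Figure D2:**
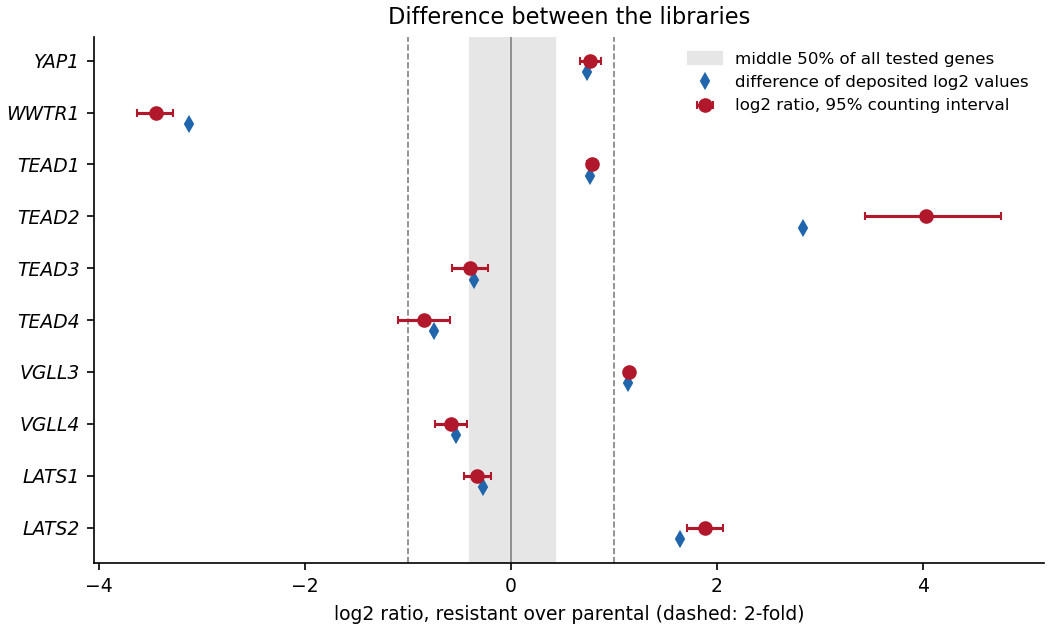
Log2 ratio of resistant over parental for each gene (circles, with 95% counting intervals) beside the difference of the deposited log2 values (diamonds), over a band for the middle 50% of all tested genes (-0.39 to 0.43) and dashed lines at 2-fold. WWTR1 lies far to the left at -3.45 and TEAD2 far to the right at 4.03, and the diamond of TEAD2 is at 2.83.

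TEAD factors carry the DNA-binding domain through which YAP and TAZ reach their targets, and the 4 genes differed in both directions. TEAD2 had 370 counts in the resistant and only 22 in the parental library, or 21.8 and 1.31 CPM. It was 16.3-fold higher (10.9 to 26.9), an interval made wide by the parental count, and 353 tested genes had a higher ratio. TEAD1 had 10080 counts in the resistant and 5797 in the parental library, or 594 and 344 CPM. TEAD1 was 1.72-fold higher (1.67 to 1.78), short of the 2-fold rule, and 1862 tested genes had a higher ratio.

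The remaining TEAD genes were lower. TEAD4 had 204 counts in the resistant and 363 in the parental library, a 1.79-fold lower level (1.51 to 2.14) whose interval reached past 2-fold. TEAD3 had 474 counts in the resistant and 617 in the parental library and was 1.31-fold lower (1.16 to 1.48). Exons of CD37, on the opposite strand, cover 10.7% of TEAD2 exon bases, but CD37 itself had 0 counts in both libraries.

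Within the TEAD family the order changed below TEAD1. TEAD1 held 69.0% of the family's per-length level in the resistant and 57.5% in the parental library. TEAD2 held 11.9% in the resistant library, beside 10.8% for TEAD3 and 8.35% for TEAD4. In the parental library TEAD2 held 1.03%, beside 20.3% for TEAD3 and 21.2% for TEAD4. TEAD2 therefore stood level with the minor TEAD genes in resistant cells and about 20-fold below them in parental cells, where the per-length ratios of TEAD3 and TEAD4 to TEAD2 were 19.7 and 20.7.

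Count ratios between pairs do not depend on library scaling. They come from the same counts as the folds above and are not separate support for them. In resistant over parental cells the TEAD2 to TEAD3 ratio was 21.9-fold higher (13.9 to 35.9) and the TEAD2 to TEAD4 ratio 29.9-fold higher (18.6 to 49.8). The TEAD1 to TEAD2 ratio was 9.67-fold lower (6.28 to 15.6). TEAD1 was 2.26-fold higher relative to TEAD3 (1.996 to 2.57) and 3.09-fold higher relative to TEAD4 (2.59 to 3.70). The TEAD3 to TEAD4 ratio was 1.37-fold higher (1.10 to 1.70). These are 6 of the 9 pairs compared, and every interval, which covers counting error only, excluded a ratio of 1. The summed TEAD counts were 11128 in the resistant and 6799 in the parental library, 1.62-fold higher (1.57 to 1.67), of which TEAD1 made up 90.6% in the resistant and 85.3% in the parental library.

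**Figure D3:**
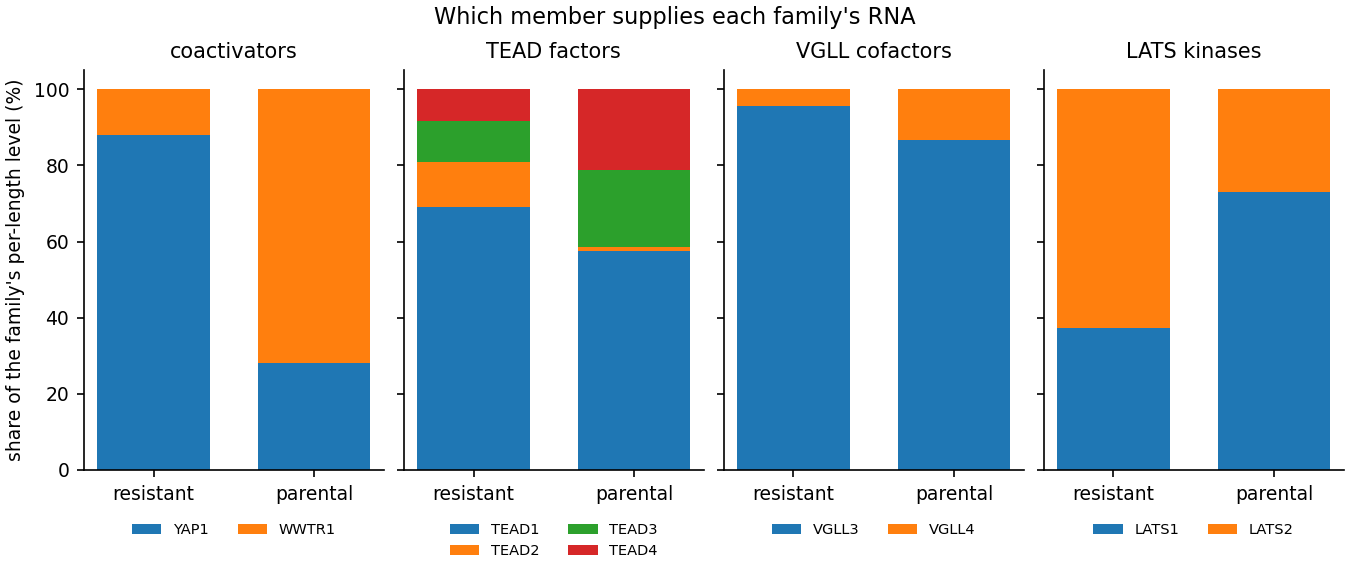
Share of each family's per-length level (%) taken by each member in the resistant (left bar) and parental (right bar) library, from the deposited log2 values turned back to a linear scale. YAP1 takes 88.0% of the coactivator level in the resistant and 28.1% in the parental library, and LATS2 takes 62.7% of the LATS level in the resistant and 27.0% in the parental library.

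The VGLL cofactors also diverged. VGLL3, a vestigial-like protein that binds TEAD through its Tondu motif, had 34977 counts in the resistant and 15720 in the parental library, or 2061 and 934 CPM. It was 2.21-fold higher (2.17 to 2.25), and 1320 tested genes had a higher ratio. Per length it was the most abundant of the 10 genes in both libraries, ranking 403 among all 18944 genes in the resistant and 965 in the parental library. VGLL4 had 566 counts in the resistant and 839 in the parental library and was 1.49-fold lower (1.34 to 1.67). The VGLL3 to VGLL4 ratio was 3.30-fold higher in resistant cells (2.96 to 3.68).

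Exons of ATG7, on the opposite strand, cover 22.1% of VGLL4 exon bases. ATG7 had 420 counts in the resistant and 526 in the parental library, so its reads, if counted to VGLL4, cannot be told apart from it. The other vestigial-like genes were all but silent. VGLL1, known from epithelial and trophoblast cells, had 0 counts in both libraries, and VGLL2, known from muscle, had 2 counts in the resistant and 0 in the parental library.

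The LATS kinases exchanged rank. LATS2 had 1278 counts in the resistant and 343 in the parental library, or 75.3 and 20.4 CPM. It was 3.69-fold higher (3.28 to 4.18), and 817 tested genes had a higher ratio. LATS1 had 916 counts in the resistant and 1137 in the parental library and was 1.25-fold lower (1.15 to 1.37). The LATS2 to LATS1 ratio was 4.62-fold higher in resistant cells (3.98 to 5.38). Per length LATS2 stood at 1.68 of LATS1 in the resistant and at 0.369 of LATS1 in the parental library. Their summed counts were 2194 in the resistant and 1480 in the parental library, 1.47-fold higher (1.38 to 1.57).

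Levels can be ordered across genes only per length, and the deposited values allow it approximately. Turned back to a linear scale (2 to the power of the value, minus 1), they were proportional to the counts within each gene. For 8345 genes with 200 counts or more in both libraries, the factor between value and count differed between libraries by a median of 0.993. The 5th and 95th percentiles were 0.982 and 1.01. This compares each gene with itself and does not test whether the divisor is gene length. Over 8209 genes the length implied by count and value had a Spearman correlation of 0.71 with GENCODE exon length. The median ratio of implied to GENCODE length was 0.63. It was 3669 against 7236 bases for VGLL4 and 5507 against 5578 for LATS2 (resistant library). Per-length shares and ratios are therefore approximate. The orders below use the linear scale. On that scale the resistant order was VGLL3 (194), TEAD1 (62.0), YAP1 (25.1), LATS2 (13.6), TEAD2 (10.7), TEAD3 (9.66), VGLL4 (9.03), LATS1 (8.06), TEAD4 (7.50) and WWTR1 (3.43). The parental order was VGLL3 (88.1), WWTR1 (37.5), TEAD1 (36.0), YAP1 (14.6), VGLL4 (13.5), TEAD4 (13.3), TEAD3 (12.7), LATS1 (9.95), LATS2 (3.68) and TEAD2 (0.643). WWTR1 moved to the last place in resistant cells, and TEAD2 held the last place in parental cells.

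Close neighbours in these orders are not separated. With counts divided by GENCODE 29 exon length instead, TEAD1 stood above WWTR1 in the parental library, TEAD3 above TEAD2 in the resistant library, and VGLL4 dropped to rank 9 and rank 8 in the resistant and parental library. Both lengths placed VGLL3 first in both libraries, YAP1 and LATS2 at ranks 3 and 4 in the resistant library, and WWTR1 last in the resistant and TEAD2 last in the parental library. With 2 libraries a pattern is only a ratio, so no gene is named for a pattern like that of a member.

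Other genes of the Hippo pathway were mostly within 2-fold. Of 100 tested genes from 6 lists of upstream and partner genes, without the 10, 12 were called higher and 2 lower, which is 12% and 2% beside 12.1% and 8.29% of all tested genes. Their median log2 ratio was 0.05. By single list, 6.25% to 17.6% of tested genes were called higher and 0% to 6.25% lower. With few genes in each list, these shares are known only coarsely beside the 12.1% and 8.29%.

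The kinase module upstream of LATS was nearly balanced. Of 22 tested genes, 3 were called higher and 1 lower, with a median of 0.01. WWC1, the gene of the scaffold KIBRA, was 2.56-fold higher (2.41 to 2.72), its relative WWC2 2.29-fold (2.08 to 2.53) and the FERM-domain gene FRMD6 2.29-fold (2.02 to 2.60). The germinal centre kinase gene TNIK was 4.43-fold lower (3.94 to 5.001). MAP4K4, the most abundant of the list, stood at 644 CPM in the resistant and 324 CPM in the parental library, with a log2 ratio of 0.99 just short of a call. The MST kinase genes were within 2-fold, STK3 at 0.85 and STK4 at -0.15, as were the adaptor genes SAV1 (0.51), MOB1A (-0.05) and MOB1B (-0.12) and the tumour suppressor NF2 (-0.18), these 6 being named for their place in the pathway.

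The STRIPAK phosphatase complex, which counters the MST kinases, had 2 of 18 genes called higher and 0 lower, with a median of 0.10. These were its MST adaptor gene SLMAP (1.21) and the scaffold subunit gene PPP2R1B (1.05, interval 0.95 to 1.15). The more abundant scaffold gene PPP2R1A was at 0.35.

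Genes for proteins that hold YAP or LATS at junctions or in the cytoplasm had 3 of 17 called higher and 0 lower, with a median of 0.30. AMOTL1, an angiomotin, was 3.36-fold higher (2.89 to 3.95). The LIM protein gene AJUBA was 2.72-fold higher (2.45 to 3.01) and the phosphatase gene PTPN14, whose product binds YAP, 2.61-fold (2.36 to 2.90). The 14-3-3 gene YWHAZ, the most abundant, was at 0.48.

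Polarity genes and atypical cadherins had 1 of 14 called higher and 0 lower, with a median of 0.11. The called gene was FAT4, a giant protocadherin, with 271 counts in the resistant and 1 in the parental library (log2 interval 5.58 to 13.4). In the deposited log2 values its difference was 0.969, which is not a call. FAT1, the most abundant, was at 0.31. Genes of YAP and LATS turnover had 2 of 13 called higher and 0 lower, with a median of 0.28. The deubiquitinase gene USP9X was 3.49-fold higher (3.34 to 3.65) and the ubiquitin ligase gene NEDD4 3.20-fold (2.94 to 3.50), while DDB1, the most abundant, was at -0.08.

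Other nuclear partners had 1 of 16 called higher and 1 lower, with a median of -0.17. ZEB1, a zinc-finger factor that can bind YAP, had 232 counts in the resistant and 13 in the parental library (17.1-fold higher, 10.1 to 33.7). TP73 had 4 and 40 counts in the same order, a call that was lost with at least 5 CPM required and in the deposited log2 values. The chromatin remodeller gene SMARCA4, the most abundant, was at -0.20. Of 22 published target genes of YAP and TAZ, LATS2 and PTPN14 among them, 11 were called higher and 2 lower, with a median of 1.04, beside 12.1% and 8.29% of all tested genes. With at least 5 CPM required, 7 were higher with a median of 0.56, and in the deposited log2 values 8 were higher with a median of 0.57. The calls lost at 5 CPM were RBMS3, CTGF, AXL and CCDC80. Each reached 1 CPM in the resistant library only, so the filter admitted them through the library where they are high. The largest ratios upward were those of RBMS3 (27 counts in the resistant and 0 in the parental library) and NUAK2 (4.79). CTGF (3.92, interval 2.51 to 6.45, 53 counts in the resistant and 3 in the parental library) and ANKRD1 (3.90) came next. The 2 lower genes, named after their values were seen, were the coagulation factor gene F3, with 226 counts in the resistant and 2318 in the parental library (10.3-fold lower), and ASAP1, with 2089 and 11849 counts in the same order (5.72-fold lower). MYOF, the most abundant, was at -0.39.

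**Figure D4:**
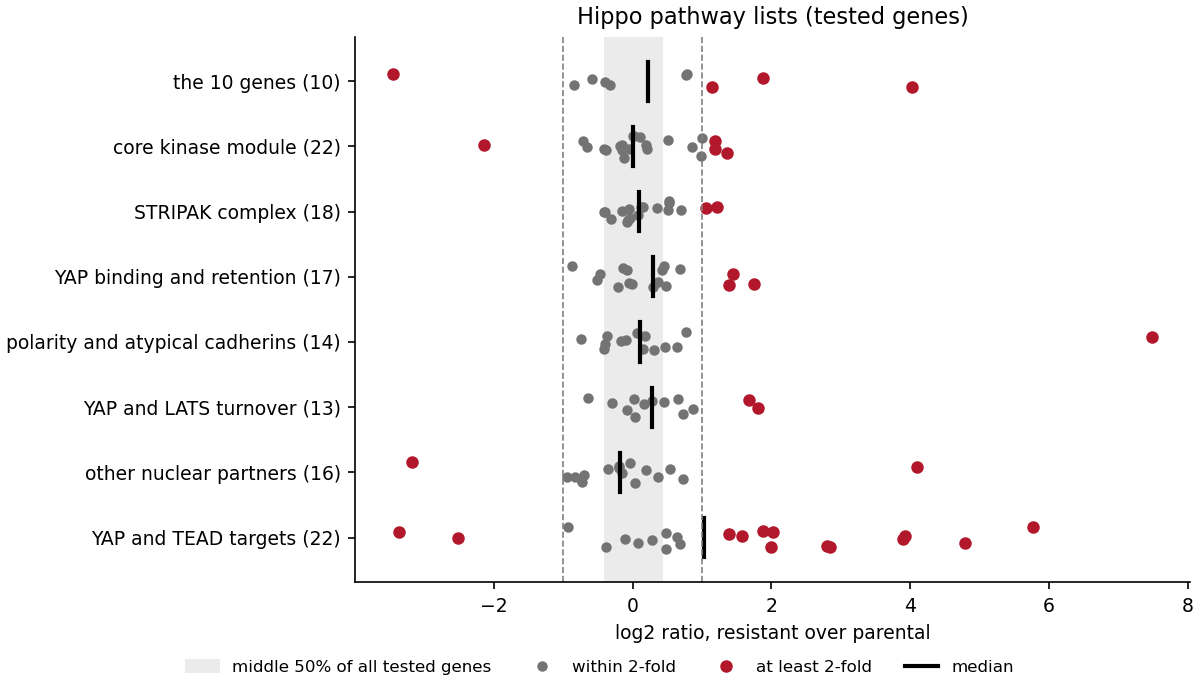
Log2 ratio of resistant over parental for each tested gene of the 10 described here and of 7 Hippo pathway lists (number of tested genes in brackets), with called genes in red, the median as a bar and the middle 50% of all tested genes as a band. The list medians lie between -0.17 and 0.30 except that of the targets, at 1.04.

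Genes beside the members on the chromosomes were set next to them, in RefSeq order and among tested genes only. VGLL3 on chromosome 3 was followed by 4 genes that were all called higher, named here after their values were seen. CHMP2B, a membrane-scission gene, had 14619 counts in the resistant and 4481 in the parental library and was 3.24-fold higher. CGGBP1 (3.86-fold), ZNF654 (4.57-fold) and C3orf38 (5.43-fold) followed it. On the other side GBE1 was at 0.85 and ROBO1 at -0.78. VGLL3 and these 4 genes thus formed a run of 5 neighbouring tested genes at 2-fold or more. Among 12208 tested genes with a RefSeq place, 5.96% had at least 4 of their 10 nearest neighbours called higher. That share counts neighbours on either side in any order and is not the share of such runs. VGLL3 had the highest such count of the 10 members, for which the share makes no allowance. GXYLT2, also among the 10 nearest to VGLL3, was called lower (-1.52, 6 counts in the resistant and 18 in the parental library). With 10 genes on either side, 4 of 20 were called higher and 4 lower. DNA copy number was not measured.

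WWTR1 had a lower ratio than each of its 10 neighbours, which had a median log2 ratio of -0.31. TM4SF1, the tested gene next to it and a tetraspanin-like surface protein gene, had 7887 counts in the resistant and 57 in the parental library, 136-fold higher. COMMD2 on the other side was 2.03-fold lower. TEAD2 on chromosome 19 had 3 of 10 neighbours called higher and a neighbour median of 0.34. The largest ratios on either side were those of FLT3LG (3.16, 49 counts in the resistant and 5 in the parental library) and PPFIA3 (2.36). TRPM4 and PIH1D1, the genes directly beside TEAD2 and named for that, were at -0.01 and 0.07.

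YAP1 on chromosome 11 also had 3 of 10 neighbours called higher, a count reached by 13.8% of placed genes. The apoptosis inhibitor gene BIRC3, next to it, had 539 counts in the resistant and 65 in the parental library, with a log2 ratio of 3.03. The next 2 genes, BIRC2 at 0.66 and TMEM123 at -0.28, are named for their place after BIRC3, and YAP1 itself was at 0.77. With 10 genes on either side, 9 of 20 were called higher, a count reached by 1.85% of placed genes. That threshold was the count of YAP1 itself, the highest of the 10 members, and no such share was computed for the others. The 1.85% makes no allowance for this choice. Among the 9 were CASP4 (2.81) and CASP1 (204 counts in the resistant and 0 in the parental library), which were chosen after their values were seen. LATS2 on chromosome 13 had 0 of 10 neighbours called, with ratios between -0.91 and 0.35 around its own 1.88. At least 1 of 10 neighbours was called higher for 63.9% of placed genes. The share of placed genes with no neighbour called in either direction was not computed.

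**Figure D5:**
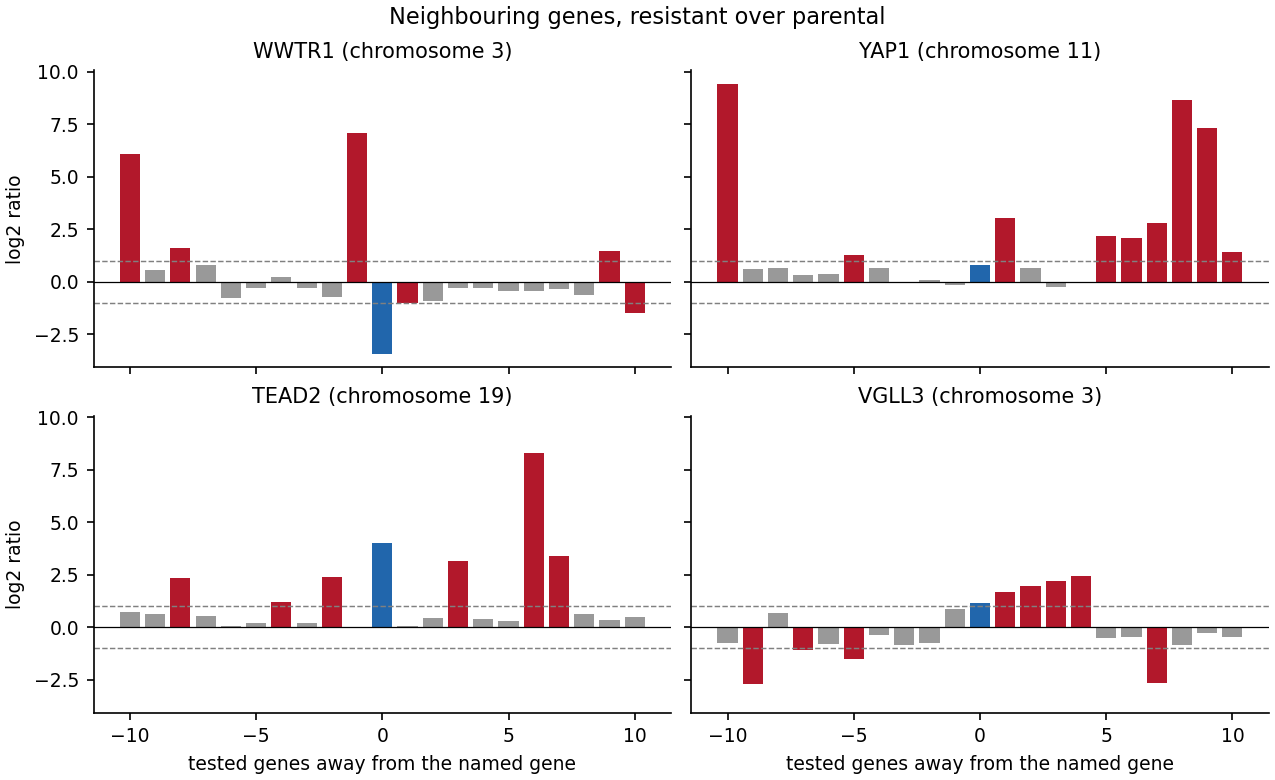
Log2 ratio of resistant over parental for WWTR1, YAP1, TEAD2 and VGLL3 (blue, position 0) and the 10 tested genes on either side in chromosome order, red where called and grey where not, with dashed lines at 2-fold. The 4 genes after VGLL3 are all red, at 1.69 to 2.44, whereas WWTR1 at -3.45 sits beside TM4SF1 at 7.09.

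TEAD1, also on chromosome 11, had neighbours with a median of -0.34 and 1 called in each direction. These were RASSF10 (4.17, 45 counts in the resistant and 2 in the parental library) and ARNTL (-1.88). TEAD3 and TEAD4 on chromosomes 6 and 12 lay among genes with medians of -0.56 and -0.47, and 9 of 10 neighbours of each had a ratio below 0 as they did. Of these neighbours, none of TEAD3 and 1 of TEAD4 was called. That gene was NRIP2 (-1.38), with 9 counts in the resistant and 24 in the parental library. Neighbours on the same side of 0 as the member were also 9 of 10 for TEAD2 and 8 of 10 for WWTR1 and VGLL4. The share of such counts over all placed genes was not computed. VGLL4 on chromosome 3 and LATS1 on chromosome 6 had neighbour medians of -0.43 and -0.18. Beside VGLL4, TIMP4 (4.46, 77 counts in the resistant and 3 in the parental library) was called higher and SLC6A11 (-2.55) lower. Beside LATS1, ULBP2 (1.36) and UST (1.29) were called higher and PPP1R14C (-1.43) lower. At least 1 and at least 2 of 10 neighbours called higher were found for 63.9% and 31.8% of placed genes.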

How the data were processed

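For each gene symbol and library the authors deposited a raw count and a normalized log2 value. The method behind the log2 value is not stated. TRIzol and a TruSeq kit were used, per the labels' protocols. The submitters' processing notes name FastQC, STAR, GRCh38 and hg19. The counting program, annotation and strand setting are not given in the sources used here.

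Counts were scaled with edgeR 4.0.16 (TMM, R 4.3.3) to effective sizes of 16974207 (resistant) and 16834058 (parental), to which CPM refer. Genes reaching 1 CPM in either library were tested, so a gene below 1 CPM in 1 library was tested only through the other. Ratios have 0.5 added to each count. Intervals are exact conditional binomial (Clopper-Pearson, scipy 1.17.1) without it, and pair ratios are conditional odds ratios. Reads without molecular identifiers are not independent molecules, so intervals cover counting error only. The calculation was tested on simulated data. RefSeq (GRCh38.p14) placed 12208 tested genes. Older symbols were matched through a list of aliases, and 2 listed genes were not found.

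Alternatives were DESeq2 1.42.0 size factors, total counts, other filters, 2 counts added, a stricter call rule and the deposited log2 values. The members and lists were chosen with earlier results of these data known. Named genes were all members, called genes of a list up to 5 (otherwise the 4 with the largest ratios), the most abundant of each list, and the called neighbours with the largest ratios, unless stated otherwise.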

Additional observations from a re-analysis of the deposited data

How the results depend on the processing

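No paired analysis was possible because each group has 1 library, which also leaves no replicate to leave out. Of 239 recomputed values, 218 stayed near the reported value and 21 moved, and 0 of the calls turned direction. A value was taken as near within its counting interval for a ratio, within 0.1 for a median log2 ratio and within 1.5 times for a count of genes. The calls of WWTR1, TEAD2, LATS2 and VGLL3 held under every scaling, filter, added count and call rule tried. With the deposited log2 values, which are compressed for low genes, WWTR1 was at -3.12, TEAD2 at 2.83 and LATS2 at 1.64. In the same values 926 genes were higher and 591 lower, 0 polarity genes were higher and 0 other nuclear partners lower, and the median of the targets was 0.57. DESeq2 size factors gave 5 kinase-module genes higher, since MAP4K4 and RASSF1 then passed. The stricter call rule left 655 genes lower overall and 1 STRIPAK gene higher. With at least 5 CPM, 0 other nuclear partners were lower, and 7 targets were higher with a median of 0.56. With 10 neighbours on either side in place of 5, the medians were 0.66 for YAP1, -0.043 for TEAD1, 0.51 for TEAD2, -0.50 for VGLL3, -0.20 for VGLL4, -0.050 for LATS1 and -0.36 for LATS2, so that of VGLL3 turned from the 0.24 of its nearest 10. Among the 10 members TEAD2 has the lowest count, 22 in the parental library, and the widest interval.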
